A study of Capra hircus with 12 samples.

Results

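Of the 20486 genes listed for embryonic skin of the cashmere goat, 96 reached their highest level at embryonic day 55 in all embryos of that stage and were lower both before and after it. The members were chosen from the values themselves. A gene was taken when its mean at E55 was at least 1 RPKM (read number scaled to gene length and library size) and its lowest E55 value was at least 1.3 times the highest of the 6 values at E45 and E65. The E55 mean was at least 1 RPKM in 12910 genes, so the members made up 0.744% of those that could be chosen. The same rule chose 406 genes at E45 and 431 at E65, and the mirrored rule, for genes low at E55 in all embryos, chose 45.

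The samples were pieces of mid-flank skin from Inner Mongolia cashmere goats: 9 unrelated embryos, of which 3 were taken on day 45 of gestation (E45-1 to E45-3), 3 on day 55 and 3 on day 65. Each gave 1 library of polyadenylated RNA. No treatment or genotype was compared, and stage is the only factor. The pieces hold all cell types of the skin at that site and whatever tissue came away with it. In such bulk samples, fewer cells of a type and less RNA per cell cannot be told apart. Libraries E65-2, E55-3 and E45-2 stand apart from the others of their stage in the genes described here, as given below, and the main results that rest on E65-2 are given with and without it.

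Hair follicles begin as placodes, local thickenings of the epidermis that form in exchange with signals from the dermis below. In this goat the coarse guard hair comes from primary follicles and the fine undercoat comes from secondary follicles, which start later. The deposited table does not pair its identifiers with gene symbols, and 0 of the 20486 matched the RefSeq gene table of the ARS1.2 assembly. No other map from identifiers to symbols was used. What the members do, and the markers of skin, were not analysed here, and 4 members are given below by identifier only.

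By the rule, the 3 E55 embryos lay above the other 6 in every member. The ratio of the lowest E55 value to the highest other value had a median of 1.59 and ran from 1.302 to 12.0. It was at least 1.5 in 54 members, at least 2 in 17 and at least 3 in 4. Just inside the limit, a member had 29.5 RPKM as its lowest E55 value against 22.7 RPKM as its highest value at another stage (ratio 1.302). Just outside it, a gene with 15.9 against 12.2 RPKM (ratio 1.297) was not taken. Among the E45 and E65 embryos, E45-3 set the limit most often, in 54 of the 96 members, followed by E65-3 in 14, E45-1 in 11, E45-2 in 10, E65-1 in 5 and E65-2 in 2. At E55 the lowest value was that of E55-1 in 45 members, of E55-2 in 44 and of E55-3 in 7.

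The members spanned a wide range of levels. Their mean at E55 ran from 1.01 to 1932 RPKM, with a median of 12.5 RPKM, against 11.3 RPKM for the 12910 genes over the same minimum. The middle of that range held a smaller share of the members than of the 12910 genes. A mean of 50 RPKM or more was found in 27 members (28.1%, against 15.2% of the 12910 genes), 5 to 50 RPKM in 36 (37.5%, against 56.3%) and 1 to 5 RPKM in 33 (34.4%, against 28.5%). In the median member the stage mean was 4.82 RPKM at E45, and at E65 it was 2.94 RPKM. A few members carried most of the signal: the most abundant made up 23.9% of the summed RPKM of the members at E55, and the 10 most abundant 73.6%.

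Summed over the members, the signal was 3057, 1968 and 3915 RPKM in E45-1, E45-2 and E45-3. It was 6394, 6805 and 11084 RPKM in the E55 embryos, in the same order, and 2112, 575 and 2679 RPKM in the E65 embryos. The members thus took 1.14% to 1.98% of all RPKM at E55. Their part was 0.351% to 0.716% at E45, and 0.0956% to 0.461% at E65. E55-3 was the highest embryo and E65-2 by far the lowest. With each member set to 100% at its own E55 mean, the median member stood at 35.9%, 26.1% and 42.5% in the E45 embryos and at 26.7%, 7.77% and 35.6% in the E65 embryos. The E45 embryos thus overlapped with E65-1 and E65-3 in the typical member, and E65-2 lay below all of them.

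**Figure D1:**
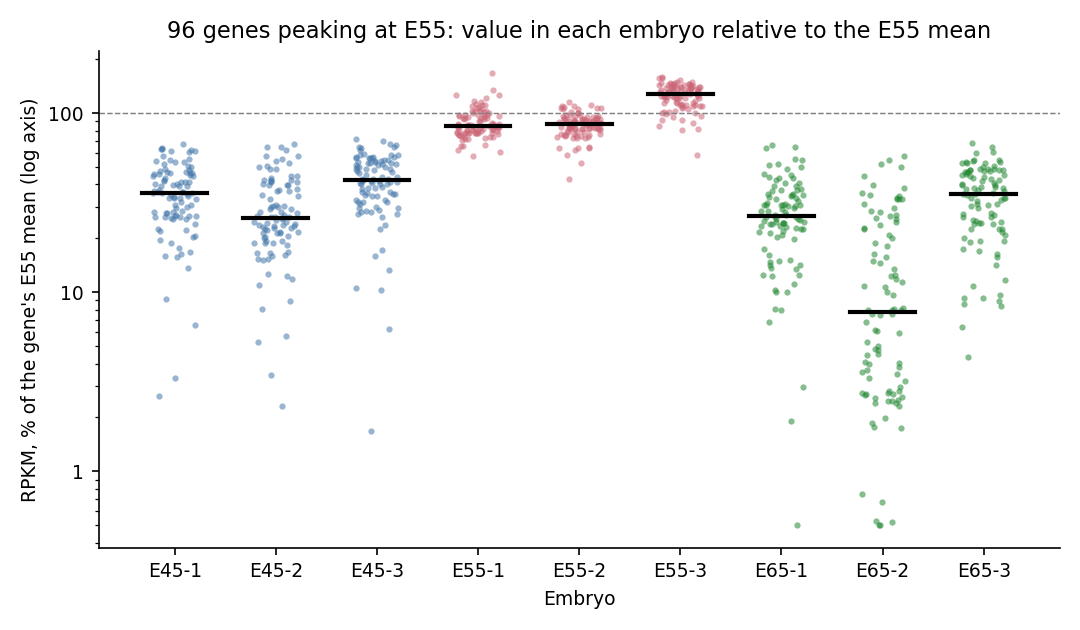
RPKM of the 96 members in each of the 9 embryos, as a percentage of the member's own E55 mean (log axis); each point is 1 member, black bars are medians, and 3 values under 0.5% are drawn at 0.5%. The E55 embryos sit near the dashed line at 100% by the choice of members, the median bars of E45-1, E45-2, E45-3, E65-1 and E65-3 lie between 26.1% and 42.5%, and the bar of E65-2 is at 7.77%.

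The 2 members that rose most from E45 to E55 show how different the members could be. The gene listed as goat_GLEAN_10003142_gene, on chromosome 18, had 0.54, 0.85 and 0.27 RPKM at E45. It had 19.55, 15.7 and 13.25 RPKM at E55, and 0.31, 1.1 and 0.7 RPKM at E65. It was low in all 6 embryos of the outer stages, and neither E55-3 nor E65-2 stood out in the direction seen in the sums: E55-3 was the lowest of the E55 embryos and E65-2 the highest of the E65 embryos. Its E55 mean was 16.2 ± 3.18 RPKM (SD, n = 3). The mean of the E45 embryos was 0.553 ± 0.290 RPKM, and that of the E65 embryos 0.703 ± 0.395 RPKM. The E65 and E45 values overlapped (log2 fold change 0.27, standard error 0.46, adjusted p = 0.719 from limma), and the sign of that difference turned without E45-3 (-0.089) or E65-2 (-0.087).

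The gene listed as GOAT_ENSP00000389202_gene, on chromosome 4, had 4.06, 1.44 and 8.24 RPKM at E45. It had 60.79, 39.66 and 85.92 RPKM at E55, and 4.96, 0.42 and 7.26 RPKM at E65. Here E55-3 was the highest embryo, and E45-2 and E65-2 were the lowest of their stages. Its E65 values overlapped with those at E45 (log2 fold change -0.49, standard error 0.94, adjusted p = 0.753 from limma), and without E65-2 the difference was 0.70 and without E45-3 it was 0.085.

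The 2 members that fell most from E55 to E65, apart from those above, shared that order of embryos. The gene listed as goat_GLEAN_10000206_gene, on chromosome 3, was the second most abundant member. It had 343.62, 144.67 and 460.13 RPKM at E45, 810.41, 1035.96 and 1580.27 RPKM at E55, and 113.96, 8.51 and 106.29 RPKM at E65. All 3 E65 embryos lay below the lowest E45 embryo, but the E65 vs. E45 difference did not pass the threshold (log2 fold change -2.59, standard error 0.89, adjusted p = 0.0698 from limma). Without E65-2 it was -1.37, with an adjusted p of 0.0929, and over all 19 alternatives the adjusted p ran from 0.0318 to 0.171.

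The gene listed as GOAT_ENSP00000245503_gene, on chromosome 19, had 15.03, 4.2 and 11.7 RPKM at E45. It had 56.56, 57.65 and 105.53 RPKM at E55, and 7.53, 1.45 and 6.14 RPKM at E65. Again E45-2 and E65-2 were the lowest and E55-3 the highest of their stages. The E65 and E45 embryos overlapped (log2 fold change -1.13, standard error 0.64, adjusted p = 0.240 from limma; 0.0840 to 0.644 over the 19 alternatives). Without E65-2 the log2 fold change was -0.41.

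**Figure D2:**
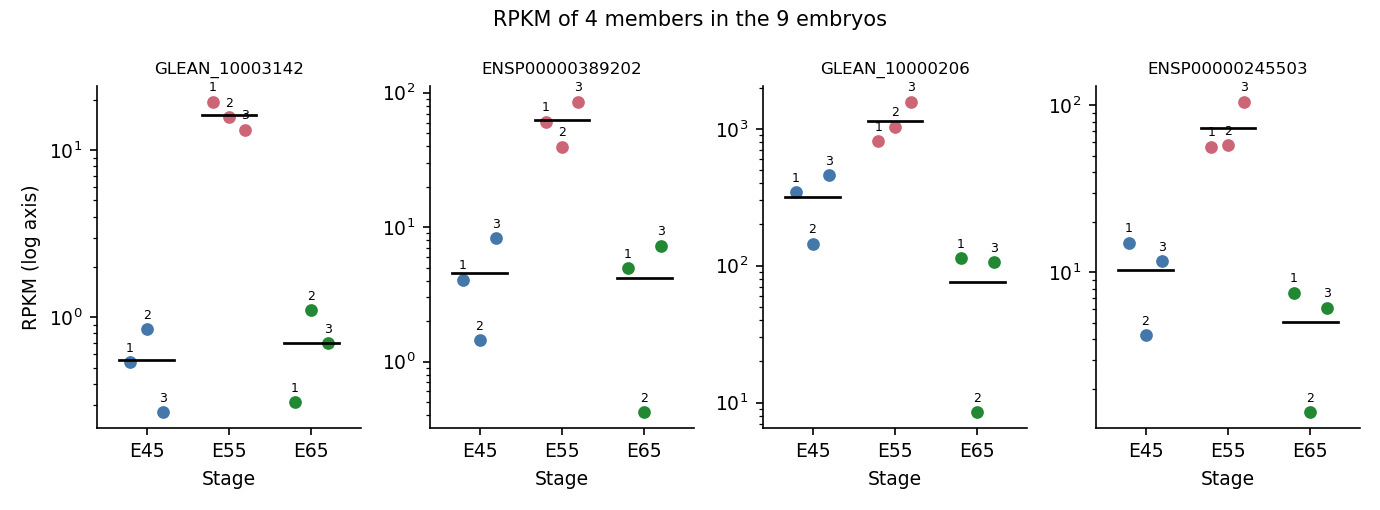
RPKM (log axis) of the 4 members given by identifier in the 9 embryos; points are embryos, numbered as in the labels, and black bars are stage means. In 3 of the 4 genes E65-2 is the lowest of all 9 embryos, while GLEAN_10003142 has 1.1 RPKM in E65-2, its highest E65 value.

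This order of the embryos was shared by most members. The rule names no order within a stage, but it uses the values of all 9 embryos. Whether the choice of members favours such an order was not tested. E65-2 was the lowest E65 embryo in 83 members (86.5%, against 38.9% of the 12910 genes with a mean E55 of at least 1 RPKM). E55-3 was the highest E55 embryo in 78 members (81.3%, against 25.2%), and E45-2 the lowest E45 embryo in 63 (65.6%, against 15.9%). All 3 held together in 55 members (57.3%), while the percentage over the 12910 genes was 4.0. E45-3 was the highest E45 embryo in 63 members (65.6%, against 26.2%). E65-3 was the highest E65 embryo in 61 (63.5%, against 36.6%). These orders were picked after the values had been seen, and members share the same 9 libraries, so they are counts and not tests.

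In size, the value of E65-2 was 28.5% of the mean of E65-1 and E65-3 in the median member, and 96.6% in the median of the 12910 genes. On the log2(RPKM + 0.1) scale the median difference was -1.42 in the members and -0.04 in those genes. E55-3 lay above the mean of E55-1 and E55-2 by a median of 0.56 in the members and by -0.05 in the 12910 genes. E45-2 lay below the other E45 embryos by a median difference of -0.55 in the members, whereas it was above them by 0.18 in the 12910 genes. In the table as a whole, 17700 genes were above 0 in E65-2, against 17572 in E65-1 and 17723 in E65-3. Its values summed to 602169 RPKM, the highest of the 9. RPKM is scaled to library size, so this sum does not measure read depth, which was not analysed here.

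**Figure D3:**
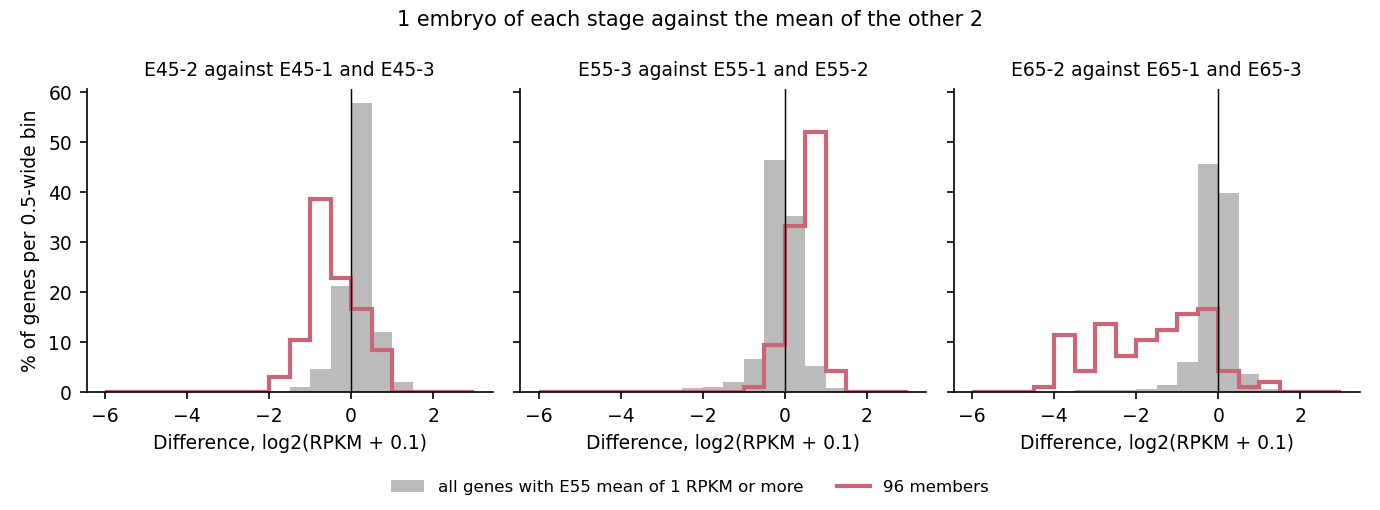
Difference on the log2(RPKM + 0.1) scale between 1 embryo and the mean of the other 2 of its stage, as the percentage of genes per bin of 0.5 (red line, 96 members; grey, the 12910 genes with a mean E55 of at least 1 RPKM). The members lean to the left of 0 for E45-2 (median -0.55), to the right for E55-3 (median 0.56) and spread far to the left for E65-2 (median -1.42), while the grey genes stay close to 0.

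The differences of these embryos went together from member to member. Across the 96 members, the difference of E65-2 and that of E45-2 had a Pearson's r of 0.64 (Spearman's rho 0.66), against 0.22 over the other 12814 genes with a mean E55 of at least 1 RPKM. The difference of E65-2 and that of E55-3 had an r of -0.46 in the members and -0.18 in the other genes, so members lower in E65-2 tended to be higher in E55-3, with exceptions. That of E45-2 and E55-3 was weaker, at -0.28 and -0.08. These are correlations across genes, which are not independent replicates and share the 9 libraries.

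In 40 members E65-2 was at 25% or less of both other E65 embryos, a limit set after the values had been seen. This was 41.7% of the members, against a percentage of 1.84 over the 12910 genes. The 40 were more abundant, with a median E55 mean of 24.5 RPKM against 5.998 RPKM in the other 56. Their median member stood at 2.71% of its E55 mean in E65-2, against 24.8% in E65-1 and 30.9% in E65-3. At E45 it stood at 32.6%, 21.5% and 42.5%. In the other 56 members the median in E65-2 was 19.5%, against 33.1% in E65-1 and 41.4% in E65-3, so that E65-2 was the lowest there as well, by less. The median of the rule's ratio was nearly equal in both, at 1.61 and 1.58. Of the 12910 genes, 197 others had the same low value in E65-2 without being members. The highest stage mean of these was at E55 in 156, at E45 in 40 and at E65 in 1, an order that the low E65-2 value and the minimum at E55 both favour, so nothing is read from it.

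The embryos of a stage differed more in the members than in most genes. The range of the 3 embryos on the log2(RPKM + 0.1) scale was widest at E65, where its median over the members was 1.68, against 0.91 at E45 and 0.71 at E55. Over the 12910 genes the median was 0.38 at E65 and at E55, and 0.49 at E45. With pseudocount 1 the medians over the members were 0.92 at E65, 0.60 at E55 and 0.57 at E45, so E65 was again the widest, while the order of E45 and E55 turned. On the first scale, without E65-2 the range of the other 2 E65 embryos was 0.41 in the members and 0.24 in the 12910 genes, and without E55-3 that of the other E55 embryos was 0.20 and 0.25. E55-1 and E55-2 were thus about as close to each other in the members as in the 12910 genes. The embryos left out were those that stood apart in the members, so a narrower range without them follows in part from that choice. The range without E55-1 or E55-2 is not given here.

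Whether the members returned at E65 to their level at E45 is the one difference between stages whose direction the rule does not set. It was tested by limma on log2(RPKM + 0.1) in 1 fit of the 9 libraries over the 16604 genes with a mean of at least 0.1 RPKM, all 96 members among them. The rule caps the E45 and E65 values of every member from above, so the choice also used the values compared here. The genes set beside the members were not chosen in this way, and the effect of the choice on these shares was not tested. Calls needed both a log2 fold change of 1 or more in size and an adjusted p below 0.05. By this test 6 of the 96 members were lower at E65 than at E45 (6.25%, where the percentage called lower over all tested genes was 9.21), and none was called higher, where it was 4.9. At an unadjusted p under 0.05, 19 members were lower, where the percentage over all tested genes was 21.4, and 0 higher, where it was 13.6. The count of 19 became 41 without E65-3 and 24 without E65-1, larger shares than the 18.4 and 18.6 percent over all genes. It stayed at 19 without E45-2, also a larger share than the 17.0 percent over all genes. In the other fits that left out 1 embryo the share was smaller than over all genes, as with 10 members without E45-3 (18.995 percent). With the replicate number as a block the count became 34, a larger share than the 21.4 percent over all genes. With quantile normalization it became 9 (15.3 percent). In the main fit of all 9 embryos, the share called lower was no larger than in the table as a whole. The median log2 fold change of the members was -0.76, against -0.07 over all tested genes, and 84 members were below 0 and 12 above. With pseudocount 1 the median of the members was -0.38, against -0.05 over all genes, and with quantile normalization it was -0.36, against 0.07, with 64 members below 0 and 32 above. It was larger in size when E65-3 was left out (-1.05, against -0.08, with 86 members below 0), and when E45-2 (-0.95) or E65-1 (-0.91) was. Without E65-2 the median was -0.15, against -0.06 over all genes, 65 members were below 0 and 31 above, and 1 member was called lower, where the percentage over all genes was 5.4, and 0 higher, where it was 3.52. Of the 5 members no longer called, 3 kept a log2 fold change past 1 in size (-1.37 to -1.07). The count of 6 also became 1 without E45-3 (6.9 percent over all genes), 2 without E45-2 (5.96 percent), and 3 when E45-1, E55-1 or E65-1 was left out (10.7, 8.43 and 6.17 percent). When E65-3 was left out it was 7 (7.29%, against 6.29 percent over all genes), the one of these fits with a larger share in the members.

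The values themselves overlapped in most members. All 3 E65 values lay below all 3 E45 values in 17 members, where the percentage over all tested genes was 22.1, and in 0 members did all E65 values lie above, where it was 15.7. The stages overlapped in the other 79. With E65-1 and E65-3 only, 17 members lay below (24.6 percent of all genes), 4 above (19.1 percent) and 75 overlapped.

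The 6 members called lower had E45 means from 1.27 to 24.4 RPKM and E65 means from 0.497 to 11.1 RPKM, with log2 fold changes from -2.07 to -1.16 and adjusted p from 0.00184 to 0.0490 by limma. Only 1 of them was among the 40 with 25% or less in E65-2. The clearest, on chromosome 14 and singled out after its values were seen, had 4.22, 3.59 and 4.36 RPKM at E45 and 0.92, 0.91 and 1.52 RPKM at E65. It fell by 1.80 on the log2 scale (standard error 0.25, adjusted p = 0.00184 by limma) and was the member still called without E65-2 (log2 fold change -1.69). Its E55 values were 5.85, 5.79 and 7.09 RPKM.

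**Figure D4:**
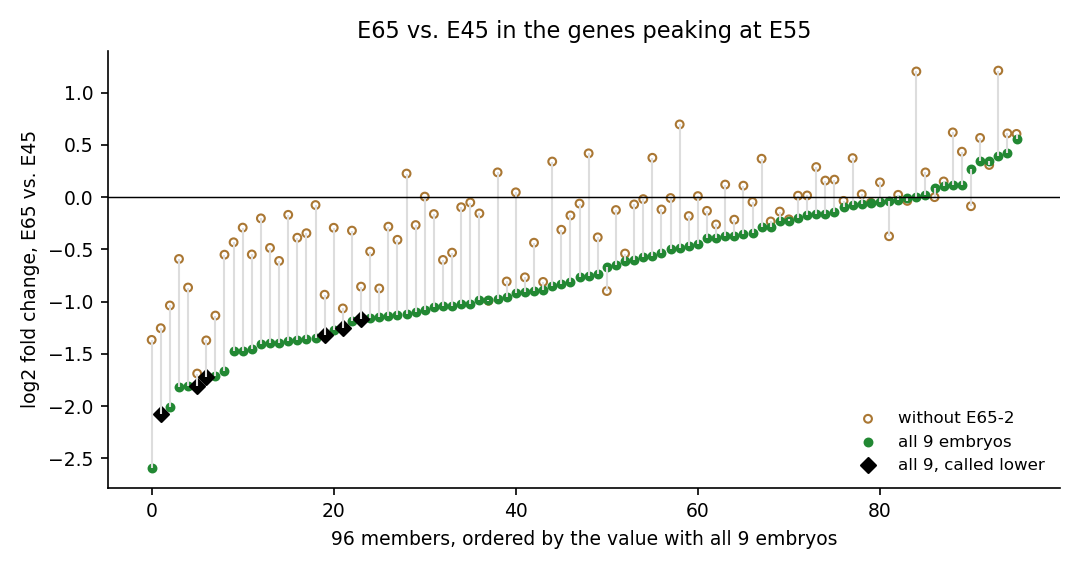
log2 fold change of E65 vs. E45 for the 96 members, ordered along the x axis by the value with all 9 embryos (filled green points; black diamonds mark the 6 called lower by limma); open brown points give the value without E65-2. Most open points lie above the filled ones, and the median moves from -0.76 to -0.15.

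The rule used the differences of E55 from both other stages, which are given here as a description. The median log2 fold change of the members was 1.45 in E55 vs. E45, against -0.12 over all tested genes, and -2.37 in E65 vs. E55, against 0.06. Without E65-2 the latter was -1.68 in the members, against 0.07. Median scaling of the libraries moved the median over all genes in E55 vs. E45 to 0.03 and that of the members to 1.59. The smallest rise of a member was 0.59 and the smallest fall was -0.68. Of the members, 6 were called higher in E55 vs. E45 (the percentage over all genes was 0.397) and 64 lower in E65 vs. E55 (3.07). Both calls were met by 6 members and, over all genes, by 7 (0.0422 percent). The 2 comparisons share the E55 embryos. The first count rose to 24 when E45-1 was left out (0.867 percent over all genes). It was 2 without E55-3 (0.331 percent) and 1 when E45-3, E65-1 or E65-3 was left out (0.0542, 0.0482 and 0.0843 percent). It was 0 when E45-2 or E55-1 was left out (0 and 0.012 percent). In these last fits 54 and 62 members were higher at an unadjusted p under 0.05 by limma, where the percentage over all genes was 5.86 and 3.74. The rule sets the direction of this difference, so these counts describe the list and do not test it. The second fell to 11 when E55-3 was left out (0.548 percent of all genes), to 25 without E55-2 (1.18 percent) and to 32 without E65-1 (1.51 percent), and it was 39 if E65-2 was dropped (1.59 percent of all genes). Without E65-2 the first count was 7 (0.187 percent).

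To see how the choice of members held in an embryo that it had not used, each embryo was held out in turn, the rule was applied to the other 8, and the held-out value was then read against the limit of 1.3. With E55-1 held out, 146 genes were chosen, and E55-1 was past the limit in 95 of them (65.1%, where the percentage over all genes with a mean of at least 1 RPKM in the remaining E55 embryos was 1.87). With E55-2 held out this was 97 of 160 (60.6%, with 1.5 over all genes). With E55-3 held out it was 96 of 108 (88.9%, with 3.8 over all genes). The held-out E55 embryo lay above all 6 others, by any margin, in 128, 139 and 99 of the chosen genes, in that order, which is 87.7%, 86.9% and 91.7% of them, where the percentages over all genes were 8.68, 7.21 and 9.68. E55-3, the embryo with the highest member values, was thus the one of the 3 E55 embryos that removed the fewest genes.

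Among the embryos of the outer stages, E45-3 mattered most to the choice. Without it 188 genes were chosen, and in 96 of them (51.1%) E45-3 was below the limit, where the percentage over all genes was 7.11. The other 92 genes were kept out by E45-3 alone. For E45-1 it was 96 of 115 (83.5%, with 9.67 over all genes), for E45-2 96 of 103 (93.2%, with 6.03), for E65-1 96 of 108 (88.9%, with 12.9), for E65-2 96 of 98 (98.0%, with 15.0) and for E65-3 96 of 113 (85.0%, with 11.8). Leaving out E65-2, in which the members were so low, therefore changed their number hardly at all, since the limit was set by other embryos. The limit is shared between the choice and the reading, so the percentages describe the list and do not test it.

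**Figure D5:**
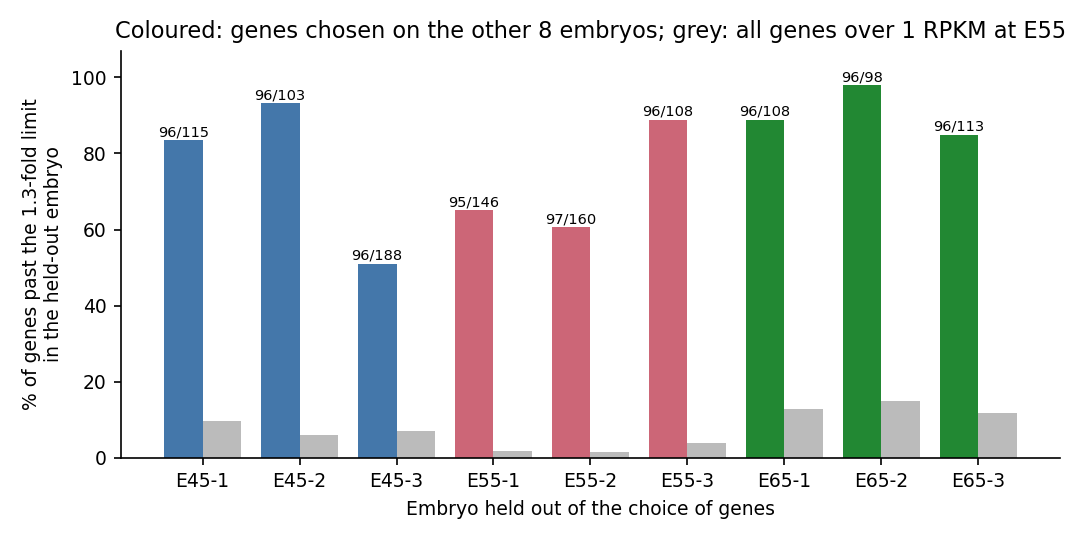
For each embryo held out of the choice, the percentage of genes past the 1.3-fold limit in that embryo: coloured bars are the genes chosen on the other 8 embryos, with their counts above, and grey bars are all genes with a mean of at least 1 RPKM over the E55 embryos not held out. The coloured bars run from 51.1% (E45-3) to 98.0% (E65-2), and the grey bars from 1.5% to 15.0%.

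The members lay on many chromosomes. Of the 30 chromosomes in the table, 25 held at least 1 member. Chromosomes 3 and 19 held 9 members each (9.38% of the members, against 5.76% and 5.89% of the 12910 genes over the minimum), chromosome 6 held 6 (6.25%, against 2.84%), and chromosome 27 held 5 (5.21%, against 1.18%). In the other direction, chromosomes 10 and 11 held 0 members (against 4.34% and 4.73%), and chromosome 5 held 2 (2.08%, against 5.27%). With so few members per chromosome no difference was tested. Positions within chromosomes and the build were not used here, so whether members lie next to each other was not analysed.

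The identifiers of the members were of the 3 forms found in the table. Those built on ENSBTAP made up 37 members (38.5%, against 46.0% of the 12910 genes), those built on ENSP 41 (42.7%, against 45.4%) and those built on GLEAN 18 (18.8%, against 8.61%). GLEAN identifiers are thus a larger part of the members than of the genes that could be chosen, and close to their part of the whole table, 18.3%. Among the 54 members with a ratio of at least 1.5 they were 24.1%. They include the member with the highest ratio and the second most abundant one, both given above. The suffix -D with a number occurs in 4 members (4.17%, against 2.05% of the 12910 genes), and what it marks was not given in the sources used here.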

How the data were processed

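The values deposited by the authors are RPKM with 2 decimals, while the methods speak of FPKM. Reads had passed a FASTX-Toolkit filter and were placed on the goat genome by TopHat (TopHat2 in the submitters' processing notes), and those placed at several locations were dropped. The build was not given in the sources used here. All 9 per-embryo columns were used. The deposited table gives no read totals, and those listed by the study were not used here. Among genes with a 0 the smallest value above 0 had a median of 0.04 RPKM, too near the rounding step of 0.01 to recover reads, so no counting interval was computed. The small RNA libraries were not analysed here.

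Genes were selected by the rule given above, and log2(RPKM + 0.1) was fitted with limma 3.58.1 in R 4.3.3 (stage as factor, mean-variance trend, Benjamini-Hochberg adjustment over 16604 genes). The count test of the study needs read counts and could not be used on RPKM. The scripts were tested on simulated data. Identifiers are printed for 4 members: the largest 2 rises in E55 vs. E45 and, of the rest, the largest 2 falls in E65 vs. E55. Gene lists by symbol were not applied, since no identifier was mapped to a symbol here. Alternatives were other pseudocounts, filters, scalings, weights, a replicate block, other rule limits and each embryo left out. The members, the alternatives and the 25% limit for E65-2 were chosen with earlier results of these data known. Python 3.11.15, pandas 2.3.3 and matplotlib 3.10.9 were used.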

Additional observations from a re-analysis of the deposited data

How the results depend on the processing

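No member was called higher in E65 vs. E45 under any of the 19 alternatives, while 1 to 8 were called lower. That number became 2 with pseudocount 1 or quantile normalization (5.83% and 6.005% of all tested genes) and 3 with no filter or with only the 6 libraries of both stages (6.9999% and 8.50%), and ran from 1 to 7 over the fits that each left out 1 embryo (5.40% to 10.7%). In E55 vs. E45 the members called higher became 12 with pseudocount 1, 3 with no filter, 15 with median scaling, 20 with quantile normalization, 28 with sample weights and 0 with the 6 libraries only (95 at an unadjusted p under 0.05 by limma, against 5.46% of all tested genes), and ran from 0 to 24 with 1 embryo left out. The share over all tested genes was 0.313%, 0.244%, 0.723%, 0.873%, 0.952% and 0.00602% under these settings, in the order given, and 0% to 0.867% with 1 embryo left out. The rule sets the direction of both differences from E55, so their counts describe the list and do not test it. In E65 vs. E55 the members called lower became 39 with the 6 libraries only (2.17% of all tested genes) and ran from 11 to 67 with 1 embryo left out (0.548% to 3.596%). With pseudocount 1 the median log2 fold change was 1.14 for E55 vs. E45; for E65 vs. E55 it was -1.48, since a larger pseudocount shrinks low genes. The number of members became 212 with a ratio of 1.1, 54 with 1.5, 17 with 2 and 56 with an E55 mean of at least 10 RPKM, by construction, and 98 to 188 with 1 embryo left out (188 without E45-3, 160 without E55-2 and 146 without E55-1). Median scaling chose 120 genes, with all 96 members among them, and quantile normalization 122, with 92 of the members. The E65 vs. E45 log2 fold change of goat_GLEAN_10003142_gene turned to -0.089 without E45-3 and -0.087 without E65-2, and ran up to 0.69 with 1 embryo left out (E65-1) and to 0.95 with quantile normalization (adjusted p = 0.142 by limma, the lowest over the 19 alternatives, which reached 0.922). That of GOAT_ENSP00000389202_gene turned to 0.085 without E45-3 and 0.70 without E65-2, and reached -1.22 without E65-3. Where no cause stands beside a change, the cause was not tested.

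With the replicate number as a block, 8 members were called lower in E65 vs. E45 (9.1% over all tested genes), 9 higher in E55 vs. E45 (0.325%) and 82 lower in E65 vs. E55 (3.48%). At an unadjusted p under 0.05 by limma, 34 members were lower in E65 vs. E45 with the block, against 21.4% of all tested genes; with quantile normalization and no block there were 9, against 15.3%. The samples share only a number: deviations of same-numbered libraries from their stage means correlated at -0.30 to 0.41 over 9 pairs, and 5 of the 9 libraries correlated best with their own number. Within the 96 members alone, the difference of E45-2 and that of E65-2 had an r of 0.64, as given above.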
